A study of Mus musculus with 16 samples.

Results

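Gene expression was compared between mice overexpressing mutant Twinkle and wild-type (wt) mice at 21 to 23 months of age, in the cerebellum and in the hippocampus. Arrays were chosen by the age given in the labels, and 8 of the 16 arrays of the study qualified, all with replicate number 3 or 4. Each genotype had 2 replicate numbers per region, so 4 mutant arrays stood against 4 wt arrays and each region held 2 against 2. The mutant mice, replicates 3 and 4 of both regions, were 21 months old. The wt mice were 21 months old for replicate 3 and 23 months old for replicate 4, again in both regions, so the genotypes were matched in age only for replicate 3. The remaining 8 arrays came from mice of 24 to 26 months and are used below as separate animals in which the same genes were measured. The labels give the genotype as an overexpressor of mutant Twinkle and name neither the promoter nor the mutation. They call the samples biological replicates and do not say whether the cerebellum and the hippocampus of one number came from the same mouse, so a p-value here reflects only how far these arrays scatter.

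The gene Twnk encodes Twinkle, the mitochondrial helicase that opens the double strand ahead of the polymerase Polg. Dominant mutations in it cause progressive external ophthalmoplegia, a disease of the eye muscles in which mitochondrial DNA deletions accumulate, and mice of this kind are known as deletors because they accumulate such deletions too. When mitochondrial DNA is lost or mutated, tissues can induce a mitochondrial stress response that includes one-carbon enzymes such as Mthfd2 and the hormones Fgf21 and Gdf15.

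The deposited values are log2 signals, each set against the median of the 8 arrays of one region. No expression level is left in such values, so neither the identity of the tissue nor the abundance of a gene could be checked, and only differences between arrays are described. Differences are given as mutant minus wt in log2 units, followed by the standard error (SE). Over all 18168 genes the median difference was 0.013 over both regions, and 56.7% of genes lay above 0. The SD over genes ranged from 0.095 to 0.17 between the 8 arrays. The mean of the 15 probe sets of the RNA spike-in controls stood at 0.49 in mutant cerebellum replicate 4, against -0.10 and 0.04 in the wt cerebellum arrays. The 7 measured sex-linked genes set no array apart from the others.

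A single probe set reads Twnk. Its cerebellum values were 0.11 and -0.01 in the mutant arrays and 0.01 and 0.00 in the wt arrays. In the hippocampus the mutant arrays read 0.01 and 0.02 and the wt arrays -0.06 and 0.05. The genotypes overlapped in both regions, with a difference of 0.03 (SE 0.06, limma adjusted p = 0.97), and at 24 to 26 months the difference was 0.10 (SE 0.05). Where the probes lie relative to the transgene is not given in the sources used here, so this value does not check the labels.

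The clearest difference between the genotypes was in Alas2, the erythroid form of the enzyme that starts haem synthesis. Its signal was 1.25 and 0.98 in wt cerebellum replicates 3 and 4, and -0.19 and -0.20 in the mutant ones. In the hippocampus it was 1.54 and 1.02 in the wt arrays and -0.29 and -0.66 in the mutant arrays. All 4 mutant arrays lay below all 4 wt arrays, as for 1.33% of all genes. Over both regions the difference was -1.53 (SE 0.14, limma adjusted p = 0.0096), and Alas2 was the only gene of 18168 that passed the threshold of 0.05, which is 0.0055% of the genes tested. Unadjusted p-values lay under 0.05 for 813 genes, 464 of them higher in mutants (2.55%) and 349 lower (1.92%).

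The Alas2 difference was -1.31 in the cerebellum (SE 0.18, limma adjusted p = 0.53) and -1.76 in the hippocampus (SE 0.18, limma adjusted p = 0.024). With mice of 21 months alone, without both wt replicate 4 arrays, Alas2 kept its call over both regions (limma adjusted p = 0.020). Leaving out mutant cerebellum replicate 3 gave a limma adjusted p of 0.066, and leaving out mutant cerebellum replicate 4 gave 0.076. The corresponding values were 0.10 without wt cerebellum replicate 3 and 0.068 without mutant hippocampus replicate 3. Averaging both regions of a genotype and number first, which leaves 2 values a side, gave 0.060. Without both regions of mutant replicate 3 the adjusted p was 0.45, and without those of mutant replicate 4 it was 0.32. Across these and the other alternatives the difference stayed between -1.81 and -1.34. In the mice of 24 to 26 months it was -0.62 (SE 0.11), and the difference between the age classes was -0.91 (SE 0.16, limma adjusted p = 1).

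The promoter of Alas2 is shown because this gene carries the only call over both regions. In erythroid cells the gene is a known target of the factor Gata1, which binds GATA motifs. The sequence runs from 250 bases before to 50 bases after the start in RefSeq (GRCm38.p6, chrX:150547167-150547466, plus strand), and capitals mark its 1 match, on either strand, to GATA with A or T before it and A or G after it. The match is AGATAA on the opposite strand, and its leftmost letter in the sequence as shown lies at position -86 from the start. Of 32851 promoters of the same length, 29.8% hold such a match.
Alas2: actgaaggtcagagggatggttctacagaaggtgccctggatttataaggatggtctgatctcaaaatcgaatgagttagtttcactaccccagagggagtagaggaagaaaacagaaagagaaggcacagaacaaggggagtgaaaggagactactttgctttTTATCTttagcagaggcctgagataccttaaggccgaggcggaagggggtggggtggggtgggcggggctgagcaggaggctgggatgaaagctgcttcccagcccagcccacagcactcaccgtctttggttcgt

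Haemoglobin transcripts, which encode the oxygen carrier of red blood cells, were read mainly by 4 probe sets annotated to several haemoglobin genes, 3 for alpha chains and 1 for beta chains. They name no single gene, stood outside the rule for naming genes and were chosen after their values were seen. Averaged over the 4 probe sets, the signal was 0.39 and 0.38 in wt cerebellum and -0.18 and -0.49 in mutant cerebellum. In the hippocampus it was 0.84 and 0.66 in wt and -0.08 and -0.36 in mutants. Every mutant array lay below every wt array. When probe sets were tested one by one, the differences over both regions were -1.02 (SE 0.11, limma adjusted p = 0.024), -0.90 (SE 0.10, limma adjusted p = 0.047), -0.79 and -0.66 (limma adjusted p = 0.091 for both). The first pair passed, but each kept its call in 1 of 14 alternatives added after the data were seen, the one without mutant cerebellum replicate 3. The mice of 24 to 26 months gave 4 differences between -0.43 and -0.35.

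Among haemoglobin genes with probe sets of their own, Hbb-b2, a beta chain, differed by -0.69 over both regions (SE 0.15, limma adjusted p = 0.94). Its arrays did not overlap between genotypes within either region. Its 2 probe sets disagreed in size, at -1.22 and -0.15, and near-identical globin genes can share signal. Hba-a1 and Hba-a2, alpha chains read by 1 probe set each, differed by 0.05 (SE 0.10) and 0.07 (SE 0.07). Other red-cell genes moved little, with -0.08 (SE 0.07) for the anion exchanger Slc4a1 and 0.02 (SE 0.06) for Bpgm, which makes the regulator of oxygen release. The housekeeping form of the first haem enzyme, Alas1, differed by -0.02 (SE 0.06), the last enzyme, Fech, by -0.07 (SE 0.06), and 5 of 11 measured haem synthesis genes lay above 0.

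Of 17 genes listed for blood cells, 12 were measured and 4 lay above 0 over both regions (56.7% of all genes), with a median of -0.096. In the cerebellum 8 of the 12 lay above 0 (54.7% of all genes), with a median of 0.038. In the hippocampus 2 did (54.6% of all genes), with a median of -0.18. The list's mean was 0.59 in wt hippocampus replicate 3 and between -0.069 and 0.089 on the other 7 arrays. That array alone was high in the neutrophil genes S100a8, at 1.44, and S100a9, at 1.78. In wt hippocampus replicate 4 these genes stood at -0.31 and -0.12, while Alas2 there was 1.02 and the mean of the 4 haemoglobin probe sets 0.66. Without wt hippocampus replicate 3 the blood list's median over both regions was 0.034. The list mixes red-cell with neutrophil genes and leaves out those 4 probe sets, so its median does not follow red cells alone. How far blood left in the tissue moved with Alas2 and the haemoglobin probe sets was not tested. In bulk tissue, fewer cells of a type and less RNA per cell cannot be told apart.

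**Figure D1:**
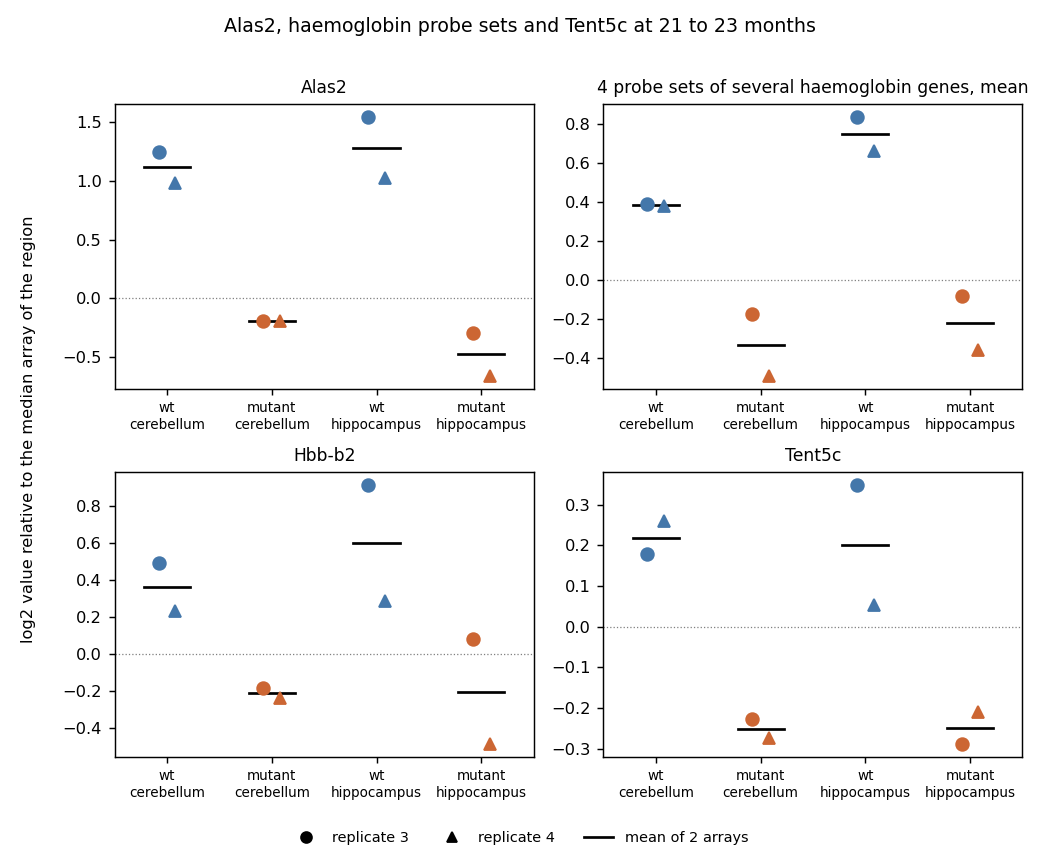
Signal on the log2 scale relative to the median array of the region (vertical axis) for Alas2, the mean of the 4 probe sets of several haemoglobin genes, Hbb-b2 and Tent5c, in the 4 groups of 2 arrays. Circles are replicate 3, triangles replicate 4 and lines the mean, and Alas2 lies between 0.98 and 1.54 in wt and between -0.66 and -0.19 in mutants.

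No other gene passed over both regions. The 11 further genes of smallest p among those lower in mutants had limma adjusted p-values of 0.63 to 0.94. Tent5c, a poly(A) polymerase that extends messenger RNA tails, came next after Alas2. In the cerebellum it read -0.23 and -0.27 in mutants and 0.18 and 0.26 in wt, and in the hippocampus -0.29 and -0.21 in mutants and 0.35 and 0.05 in wt. Its difference was -0.46 (SE 0.07, limma adjusted p = 0.63), with -0.70 and -0.22 for its 2 probe sets, and it was -0.27 (SE 0.10) at 24 to 26 months.

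Dlgap4, a scaffold protein of the postsynaptic density, differed by -0.52 (SE 0.12), with -0.55 and -0.50 for its 2 probe sets. Grin2a, a subunit of the NMDA glutamate receptor, differed by -0.38 (SE 0.09). Atp2b2, a plasma membrane calcium pump, and Camk1d, a calcium-dependent kinase, each differed by -0.31 (SE 0.07). The transcription factor Camta2 stood at -0.32 (SE 0.08) and the interferon-induced exonuclease Isg20 at -0.31 (SE 0.08). None of the 6 passed (limma adjusted p = 0.94 for each). In the mice of 24 to 26 months Dlgap4 stood at -0.05 (SE 0.10), Grin2a at 0.00 (SE 0.07), Atp2b2 at -0.15 (SE 0.08) and Camk1d at -0.10 (SE 0.07). The remaining lower genes were Hbb-b2, the uncharacterised Gm13238 at -0.41 (SE 0.08), Gdap10 at -0.31 (SE 0.08) and Pisd-ps3 at -0.28 (SE 0.07). Pisd-ps3 is a pseudogene copy, so its 5 probe sets can read its parent gene as well.

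Among the 12 genes of smallest p that were higher in mutants, all with a limma adjusted p of 0.94, 2 encode parts of motile cilia and sperm tails. Iqcg, of the complex that links neighbouring microtubule doublets, read 0.28 and 0.08 in mutant cerebellum and 0.39 and 0.26 in mutant hippocampus. All 4 wt arrays read between -0.13 and -0.02, below every mutant array (as for 2.03% of all genes), and the difference was 0.32 (SE 0.07). Dnajb13, a protein of the radial spokes, differed by 0.21 (SE 0.06), and its mutant arrays, at 0.02 to 0.18, lay above all wt arrays, at -0.16 to -0.03. Dnajb13 differed by about the same at 24 to 26 months, 0.22 (SE 0.05), whereas Iqcg was at -0.03 (SE 0.07).

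Mthfd2, the mitochondrial one-carbon enzyme of the stress response, was also among the higher genes. It read 0.02 and 0.12 in mutant cerebellum against -0.10 and -0.18 in wt, and 0.11 and 0.14 in mutant hippocampus against -0.06 and -0.14 in wt. Its difference was 0.22 (SE 0.06), its 2 probe sets gave 0.22 and 0.21, and the value at 24 to 26 months was 0.05 (SE 0.08). Of the others, Pnoc, the precursor of the neuropeptide nociceptin, stood at 0.34 (SE 0.08) and Lum, the collagen-binding proteoglycan lumican, at 0.34 (SE 0.08). B3gnt8, a glycosyltransferase, stood at 0.31 (SE 0.08), the RNA-binding protein Celf6 at 0.30 (SE 0.07), the tetraspanin Tspan6 at 0.29 (SE 0.07) and the homeodomain factor Isl1 at 0.28 (SE 0.07). The retinoic acid-degrading enzyme Cyp26a1 differed by 0.27 (SE 0.06), the trafficking adaptor Tom1l1 by 0.25 (SE 0.06) and the secreted protein Vwce by 0.24 (SE 0.06).

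For the 12 higher genes, mutant and wt arrays did not overlap within either region, as for 3.5% of all genes. The same held downward for 11 of the 12 lower genes, against 2.17% of all genes. As small p-values chose these genes, nothing is read from the counts. In the mice of 24 to 26 months, which had no part in choosing them, 9 of the 12 higher and 10 of the 12 lower genes had the same sign. Their median at the younger and the older age was 0.28 and 0.085 for the higher genes, and -0.35 and -0.093 for the lower ones. Choosing genes by small p at the younger age favours larger differences there, so nothing about age is read from these medians. The share of all genes with the same sign at both ages is not given here, so nothing is read from the sign counts. The correlation of the genotype difference between both age classes was r = 0.096 over 18168 genes, which are not independent replicates and share the array platform and the centring on one median per region.

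**Figure D2:**
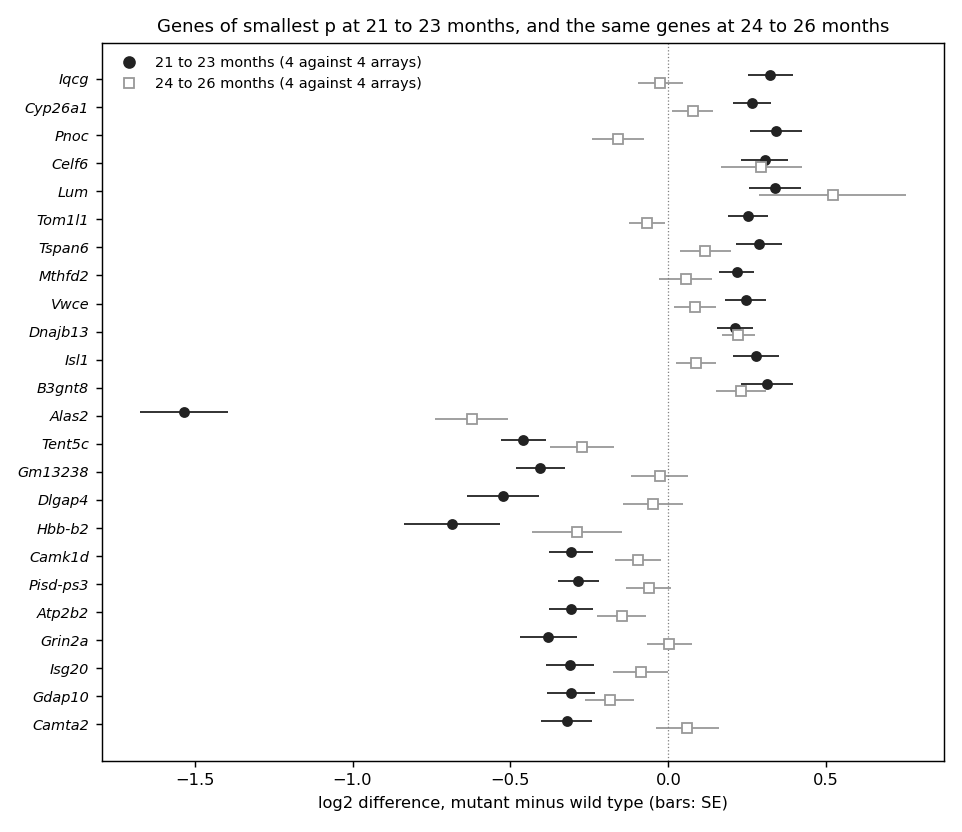
Genotype difference on the log2 scale (horizontal axis, bars are SE) of the 24 genes of smallest p at 21 to 23 months (filled circles), with the same genes at 24 to 26 months (open squares), 4 against 4 arrays each. Alas2 is far left at both ages, at -1.53 and -0.62, and most other genes lie nearer 0 at the older age. The younger arrays chose the genes, so this is not read as a change with age.

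In the cerebellum alone limma called 0 of 18168 genes (0%), with 441 at an unadjusted p under 0.05, 239 higher (1.32%) and 202 lower (1.11%). The smallest adjusted p was that of Alas2, at 0.53, and with its spread estimated from all 16 arrays or from the 4 cerebellum arrays alone Alas2 was called there (limma adjusted p = 0.045 and 0.039). Lamp5, a membrane protein of neuronal vesicles, had the next largest difference among the named genes. Its mutant arrays read 0.09 and -0.33 and its wt arrays 0.53 and 0.92, a difference of -0.84. Over both regions Lamp5 differed by -0.47 (SE 0.16) in the younger mice and by 0.18 (SE 0.14) at 24 to 26 months. Among the other lower genes of smallest p in the cerebellum, Dlgap4 stood at -0.71, Tent5c at -0.47 and the uncharacterised Gm31679 at -0.43. On the higher side stood B3gnt8 at 0.44, the release-machinery protein complexin 4 (Cplx4) at 0.41, Ccdc63, a protein of dynein docking in sperm tails, at 0.41, the RNA polymerase II subunit Polr2d at 0.35 and the proteasome assembly factor Psmg1 at 0.33. None passed (limma adjusted p = 1 for each). Without wt cerebellum replicate 4, 9 genes were called, all lower in mutants and without Alas2 among them. The hybridization control spikes averaged -0.80 on that array, against 0.26 on wt cerebellum replicate 3, and the part of this in the count was not tested.

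In the hippocampus alone limma called 4 genes, or 0.022% of those tested, with 1008 at an unadjusted p under 0.05, 597 higher (3.29%) and 411 lower (2.26%). Cfap161, Enkur and Zic1 rose and Alas2 fell. The arrays of the genotypes did not overlap for any of the 4, as upward for 20.5% and downward for 16.2% of all genes. Cfap161, a cilia- and flagella-associated protein, read 1.01 and 0.89 in the mutant arrays and -0.01 and -0.02 in the wt arrays. The difference was 0.96 (SE 0.10, limma adjusted p = 0.024). Enkur, a protein of ciliary and sperm-tail microtubules, read 0.83 and 0.68 in mutants and -0.10 and -0.15 in wt, a difference of 0.88 (SE 0.10, limma adjusted p = 0.043). In the cerebellum neither gene set the genotypes apart, with differences of -0.10 for Cfap161 and -0.01 for Enkur. Over both regions, Cfap161 stood at 0.43 (SE 0.18) in the younger mice and at 0.34 (SE 0.15) in the older mice. For Enkur the corresponding values were 0.43 (SE 0.16) and 0.13 (SE 0.12).

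Zic1, a zinc finger transcription factor of cerebellar granule neurons and of several forebrain regions next to the hippocampus, read 0.77 and 0.31 in mutant hippocampus and -0.66 and -0.78 in wt. The difference was 1.26 (SE 0.14, limma adjusted p = 0.043), with 1.61 and 0.90 for its 2 probe sets. In the cerebellum it was 0.00. Over both regions the difference was 0.63 (SE 0.22) in the younger mice. At 24 to 26 months the difference over both regions had the opposite sign, -0.58 (SE 0.52). The lists of both kinds of tissue hold Zic1. Of 21 measured genes listed for thalamus, striatum and cortex, 12 lay above 0 in the hippocampus, with a median of 0.022. An unadjusted p under 0.05 was seen for 3 of them, all higher (3.29% of all genes). The list's mean was 0.021 and 0.022 in mutant hippocampus and -0.19 and -0.06 in wt. Of 18 measured genes of cerebellar granule neurons, 13 did (54.6% of all genes), with a median of 0.14 that was 0.032 without mutant hippocampus replicate 3. The mean of the granule neuron list was 0.098 and -0.015 in mutant hippocampus and -0.20 and -0.11 in wt. The part of neighbouring tissue in the dissected pieces in the Zic1 difference was not tested.

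These calls rest on few arrays. Without wt hippocampus replicate 3, 0 genes were called in the hippocampus, and without mutant cerebellum replicate 3, as without replicate 4, the only call was Dynlrb2, a dynein light chain of cilia, higher in mutants. Without wt hippocampus replicate 4 there were 68 calls, all 4 of the original genes among them. Without mutant hippocampus replicate 3 there were 14 calls, Alas2 and Zic1 among them, and without mutant hippocampus replicate 4 there were 4, Zic1 among them. With the 4 hippocampus arrays fitted alone the only call was Dynlrb2. With the spread taken from all 16 arrays it was Alas2. Quantile normalization also called 4 genes, of which only Alas2 was shared. Across all alternatives the difference of Cfap161 stayed between 0.80 and 1.02, that of Enkur between 0.77 and 0.95 and that of Zic1 between 0.90 and 1.49.

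**Figure D3:**
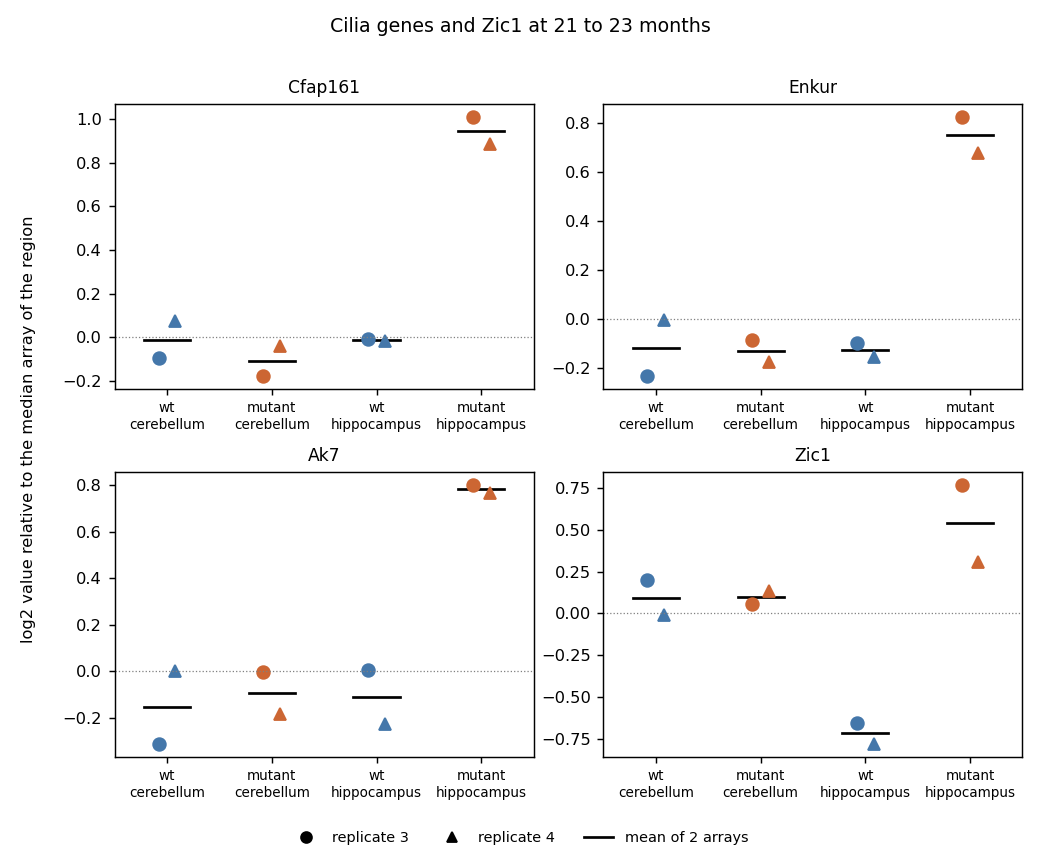
Signal on the log2 scale relative to the median array of the region (vertical axis) of Cfap161, Enkur, Ak7 and Zic1 in the 4 groups of 2 arrays, with circles for replicate 3, triangles for replicate 4 and lines for the mean. Both mutant hippocampus arrays lie above both wt hippocampus arrays in all 4 panels, and the cerebellum arrays show no such gap.

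Other genes of ependymal cells, the ciliated cells that line the ventricles and move the cerebrospinal fluid, stood on the same side as Cfap161 and Enkur. Of the 22 genes listed for ependyma and motile cilia, to which neither Cfap161 nor Enkur belongs, 21 were higher in mutant hippocampus (54.6% of all genes), with a median of 0.25. Unadjusted p-values were under 0.05 for 12 of them, all higher (3.29% of all genes), and none passed after adjustment. Ak7, an adenylate kinase of cilia, read 0.80 and 0.76 in mutants and 0.00 and -0.23 in wt, a difference of 0.89 (SE 0.13, limma adjusted p = 0.11). Dynlrb2 read 1.14 and 1.04 in mutants and -0.14 and -0.19 in wt, a difference of 1.25 (SE 0.26). The membrane protein gene Tmem212 differed by 1.34 (SE 0.26), Ccdc153 by 0.98 (SE 0.15), the radial spoke gene Rsph4a by 0.80 (SE 0.14) and Foxj1, the transcription factor that drives motile cilia, by 0.43 (SE 0.14). Some listed genes moved little, with 0.01 (SE 0.12) for the ciliary dynein Dnah5 and 0.05 (SE 0.10) for the central apparatus protein Hydin. Tekt1, of the doublet microtubules, lay below 0, at -0.08 (SE 0.14). The list's mean was 0.31 and 0.36 in mutant hippocampus and -0.05 and -0.12 in wt. In the cerebellum 10 of the 22 lay above 0 (54.7% of all genes) with a median of -0.015, and mutant cerebellum replicate 4 had the lowest list mean, -0.23. The list's median over both regions was 0.12 in the younger mice and 0.095 at 24 to 26 months.

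Promoters of both called cilia genes are shown because ciliary genes are known targets of RFX factors. Capitals mark matches to GTTGCC, a half-site of the RFX motif, on either strand (RefSeq, GRCm38.p6, 250 bases before to 50 bases after the start). Cfap161 (chr7:83794790-83795089, minus strand) holds 3 matches, all on the opposite strand, whose leftmost letters as shown lie at -66, -59 and -39 from the start. Enkur (chr2:21205316-21205615, minus strand) holds 1, at -34. Of 32851 promoters, 12.5% hold this half-site. Of the 18 ependymal list genes that have a promoter entry, 7 hold it in any of their promoters. The former counts promoters and the latter counts genes, so these shares are not compared. These matches describe the letters of the window and show no binding.
Cfap161: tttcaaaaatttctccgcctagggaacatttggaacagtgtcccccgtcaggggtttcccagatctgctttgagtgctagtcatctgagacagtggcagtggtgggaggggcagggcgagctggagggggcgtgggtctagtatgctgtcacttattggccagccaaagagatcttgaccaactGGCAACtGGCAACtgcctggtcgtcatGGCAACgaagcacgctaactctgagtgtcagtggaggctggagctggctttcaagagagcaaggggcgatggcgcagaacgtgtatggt
Enkur: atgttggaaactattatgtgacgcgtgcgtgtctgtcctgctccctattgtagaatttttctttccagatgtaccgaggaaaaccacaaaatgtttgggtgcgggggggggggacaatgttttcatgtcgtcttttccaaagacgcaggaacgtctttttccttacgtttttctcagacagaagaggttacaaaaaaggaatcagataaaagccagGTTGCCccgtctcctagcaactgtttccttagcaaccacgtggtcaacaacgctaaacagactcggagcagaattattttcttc

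The choroid plexus, the secretory tissue in the ventricles next to ependyma, gave larger and far less even differences. All 23 measured genes of its list lay above 0 in the hippocampus (54.6% of all genes), with a median of 0.92, and 1 of the 23 did in the cerebellum (54.7% of all genes), with a median of -0.53. The list's mean was 1.49 in mutant hippocampus replicate 4 and 0.11 in replicate 3, against -0.20 and -0.33 in wt. In the cerebellum it was -1.01 in mutant replicate 4 and between -0.08 and 0.21 on the other 3 arrays. Ttr, which encodes the thyroxine carrier transthyretin, read 0.67 and 2.00 in mutant hippocampus and -0.69 and -0.87 in wt, and it read -3.02 in mutant cerebellum replicate 4. Otx2, a transcription factor of choroid plexus, differed by 1.67 in the hippocampus (SE 0.28, limma adjusted p = 0.20), the folate receptor Folr1 by 2.15 (SE 0.90) and the potassium channel Kcnj13 by 2.25 (SE 0.76). None of the list passed in the main fits of either region or of the difference between them. In that difference 16 of the 23 had an unadjusted p under 0.05, all higher in the hippocampus (2.14% of all genes). Some alternatives called members of the list, such as Otx2 in the hippocampus under quantile normalization. Without mutant hippocampus replicate 4 the list's hippocampus median was 0.14, and without mutant cerebellum replicate 4 its cerebellum median was 0.025. For the ependymal list the hippocampus median was 0.20 without mutant hippocampus replicate 4 and 0.34 without replicate 3. How much ventricle lining entered each dissected piece, and its part in the differences of ciliary genes, was not tested.

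**Figure D4:**
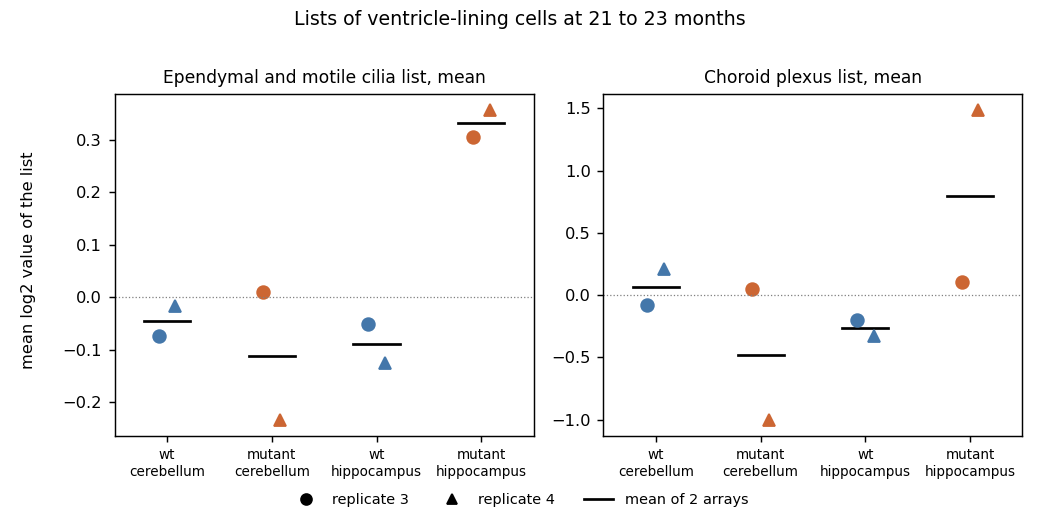
Mean log2 signal of the ependymal and motile cilia list (left, 22 genes) and of the choroid plexus list (right, 23 genes) on each of the 8 arrays, with circles for replicate 3 and triangles for replicate 4. The ependymal mean is 0.31 and 0.36 in mutant hippocampus, while the choroid plexus mean is high in 1 mutant hippocampus array, at 1.49, and low in 1 mutant cerebellum array, at -1.01.

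Among genes lower in mutant hippocampus, Cpne9, a calcium-binding copine, came closest to a call after Alas2. It read -0.19 and -0.27 in mutants and 0.53 and 0.43 in wt. The difference was -0.71 (SE 0.10, limma adjusted p = 0.10), with -0.09 in the cerebellum. Over both regions Cpne9 differed by -0.40 (SE 0.12) in the younger mice and by -0.21 (SE 0.10) at 24 to 26 months. Grin2a, at -0.59 (SE 0.10), Ano3, of the anoctamin membrane proteins, at -0.58 (SE 0.09), and Cd109, a membrane-anchored binding partner of TGF-beta, at -0.64 (SE 0.10), each had a limma adjusted p of 0.17. On the higher side the unnamed transcript 1700007K13Rik differed by 1.07 (SE 0.15, limma adjusted p = 0.11).

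The difference between the regions was tested directly, as the hippocampus effect minus the cerebellum effect. limma called 0 genes (0%), with 661 at an unadjusted p under 0.05, 389 of them higher (2.14%) and 272 lower (1.5%), and 49.7% of all differences above 0. Cfap161 had the smallest adjusted p, 0.41, at a difference of 1.06 (SE 0.14). Zic1 stood at 1.26 (SE 0.20), Enkur at 0.89 (SE 0.15) and the methyltransferase-like gene Mettl24 at 0.80 (SE 0.13). On the other side stood Cd109 at -0.71 (SE 0.15), the matrix protease Adamts7 at -0.68 (SE 0.14), Cpne9 at -0.62 (SE 0.14) and Ano3 at -0.60 (SE 0.13). A call in the hippocampus and none in the cerebellum therefore does not show that the regions differed for these genes. Over 18168 genes the correlation between the cerebellum and the hippocampus difference was r = -0.014.

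The difference between the age classes was tested on all 16 arrays, and limma called 0 genes (0%), with 500 at an unadjusted p under 0.05, 232 higher (1.28%) and 268 lower (1.48%), and 49.3% of all differences above 0. The smallest adjusted p was 1. The effect at 21 to 23 months exceeded that at 24 to 26 months by 0.61 (SE 0.13) for the immediate early gene Fosb, which stood at 0.13 (SE 0.08) in the younger and at -0.49 (SE 0.09) in the older mice. The values were 0.50 (SE 0.11) for Pnoc, 0.39 (SE 0.08) for the Notch target Hes1 and 0.29 (SE 0.07) for an immunoglobulin variable segment, whose relatives can share its signal. Alas2 led the other direction at -0.91 (SE 0.16), ahead of the muscarinic receptor Chrm3 at -0.45 (SE 0.11), the muscle factor Myog at -0.38 (SE 0.10) and Pwwp2b at -0.31 (SE 0.08).

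Gene lists are described by counts and medians beside those of all genes, and no list was tested as a set. Genes of the mitochondrial ribosome, which translates the proteins encoded by mitochondrial DNA, lay above 0 over both regions for 69 of 76 measured members, with a median of 0.082. The median was 0.074 in the cerebellum and 0.064 in the hippocampus. Unadjusted p-values were under 0.05 for 4 members, all higher (2.55% of all genes), and the arrays of both genotypes did not overlap in either region for 11 (3.5% of all genes). Mrps6 stood highest of the named members, at 0.24 (SE 0.09), Mrps35 at 0.19 (SE 0.07) and Mrps23 at 0.15 (SE 0.06). The list's mean in mutants was -0.01 and 0.08 in the cerebellum and 0.05 and 0.09 in the hippocampus, while all wt arrays lay between -0.05 and 0.00. Without mutant replicate 4 in both regions the median was 0.039, and at 24 to 26 months it was 0.037. No member passed after adjustment.

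Subunits of the respiratory chain showed small differences of the same sign. For complex I, which takes electrons from NADH, 29 of 34 measured genes lay above 0, with a median of 0.070 and with Ndufa2 at 0.14 (SE 0.06) as the 1 member with an unadjusted p under 0.05. For complexes II to V, 34 of 38 lay above 0, with a median of 0.051 and no member at an unadjusted p under 0.05. In the older mice the medians were 0.048 and 0.023. These shares stand beside 56.7% of all genes above 0 and a median of 0.013, and no gene of either list passed after adjustment.

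Genes of fatty acid oxidation lay above 0 for 19 of 20 measured members (56.7% of all genes), with a median of 0.079 that was 0.047 without wt replicate 3. Of these, 4 had an unadjusted p under 0.05, all higher (2.55% of all genes), among them the electron carrier subunits Etfa, at 0.18 (SE 0.06), and Etfb, at 0.18 (SE 0.06), and the isomerase Eci1, at 0.23 (SE 0.07). Among antioxidant enzymes 21 of 26 lay above 0, with a median of 0.059 that was 0.036 without mutant hippocampus replicate 4, and the glutathione transferase Gstt1 stood at 0.25 (SE 0.07) and the quinone reductase Nqo1 at 0.24 (SE 0.09). At 24 to 26 months Gstt1 was again at 0.25, and Nqo1 at -0.06. The tricarboxylic acid cycle had 16 of 22 above 0, with a median of 0.021, and glycolysis 7 of 18, with a median of -0.028.

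Genes that maintain and transcribe mitochondrial DNA, the process in which Twinkle acts, lay above 0 for 15 of 21, with a median of 0.048 over both regions (0.022 without mutant cerebellum replicate 4), 0.061 in the cerebellum and -0.010 in the hippocampus (0.011 without mutant hippocampus replicate 4). The polymerase Polg stood at -0.05 (SE 0.06), the packaging and transcription factor Tfam at 0.06 (SE 0.06) and the single-strand binding protein Ssbp1 at 0.02 (SE 0.06). Genes of nucleotide supply lay above 0 for 14 of 16, with a median of 0.050 (0.026 without wt cerebellum replicate 3), and had no member with an unadjusted p under 0.05. In the stress response list 21 of 30 lay above 0, with a median of 0.051 (0.023 without wt hippocampus replicate 3). Mthfd2 and the translation inhibitor Eif4ebp1, at 0.14 (SE 0.06), had unadjusted p-values under 0.05. Fgf21 stood at 0.12 (SE 0.09) and its arrays overlapped between genotypes in both regions, and Gdf15 has no value here. Regulators of mitochondrial biogenesis lay above 0 for 9 of 20, with a median of -0.034, and Nrip1, a corepressor of oxidative genes, stood at -0.22 (SE 0.06) and the energy sensor subunit Prkaa2 at -0.17 (SE 0.06). Mitochondrial chaperones and proteases had 16 of 21 above 0 and genes of dynamics and mitophagy 7 of 19, with medians of 0.052 and -0.013.

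Synaptic lists leaned the other way. Among synaptic vesicle and postsynaptic genes 6 of 25 lay above 0, with a median of -0.091, and 3 had an unadjusted p under 0.05, all lower (1.92% of all genes). These were the kinase subunits Camk2a, at -0.33 (SE 0.10), and Camk2b, at -0.26 (SE 0.08), and the scaffold Dlg4, at -0.21 (SE 0.08). Without wt cerebellum replicate 3, where the list's mean was 0.20, its median was -0.018. Of 22 glutamate and GABA receptor genes, 8 lay above 0, with a median of -0.052 that was -0.11 without wt cerebellum replicate 3 and -0.023 without wt hippocampus replicate 4. Besides Grin2a, the GABA receptor subunit Gabra5 stood at -0.25 (SE 0.09) and the AMPA receptor subunit Gria3 at -0.18 (SE 0.07). At 24 to 26 months these lists had medians of -0.015 and -0.007.

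Markers of both principal neurons of the hippocampus were mostly lower in mutants. For dentate granule neurons 3 of 18 genes lay above 0 in the hippocampus (54.6% of all genes), with a median of -0.17. Of these genes, 7 had an unadjusted p under 0.05, all lower (2.26% of all genes). Sema5a, a guidance molecule, read 0.00 and -0.18 in mutants and 0.49 and 0.22 in wt, and Prox1, the factor that fixes granule cell identity, 0.04 and -0.28 against 0.35 and 0.13. For pyramidal neurons 5 of 18 lay above 0 (54.6% of all genes), with a median of -0.11. An unadjusted p under 0.05 was seen for 7 lower (2.26% of all genes) and 1 higher (3.29% of all genes). Inhibitory interneuron genes stood on the other side, with 17 of 20 above 0 in the hippocampus (54.6% of all genes), a median of 0.18 and 6 higher at an unadjusted p under 0.05 (3.29% of all genes). Their mean was 0.11 and 0.06 in mutants and -0.24 and -0.07 in wt, so wt replicate 3 was lowest. Without wt hippocampus replicate 4 the median of the interneuron genes was 0.32, and those of dentate granule and pyramidal neurons were -0.29 and -0.19. Other arrays left out gave smaller medians, with 0.15 for interneurons without wt hippocampus replicate 3. The dentate granule median was -0.12 without mutant hippocampus replicate 4, and the pyramidal median was -0.071 without mutant hippocampus replicate 3. Over both regions, the medians in the younger mice were -0.11 for dentate granule neurons, -0.068 for pyramidal neurons and 0.085 for interneurons. At 24 to 26 months the corresponding medians over both regions were -0.025, 0.060 and -0.002. None of these genes passed after adjustment, and differences in the dissected tissue were not tested.

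Glial lists varied between arrays of the same genotype. All 21 measured myelin genes lay above 0 in the hippocampus (54.6% of all genes), with a median of 0.22 that was 0.040 without wt hippocampus replicate 4. In the cerebellum 3 of 21 did (54.7% of all genes), with a median of -0.11 that was -0.004 without wt cerebellum replicate 3. The myelin mean was 0.07 and 0.20 in mutant hippocampus and 0.08 and -0.23 in wt, so the genotypes overlapped. Microglial genes lay above 0 for 15 of 21 over both regions (56.7% of all genes), with a median of 0.076 that was 0.041 without mutant replicate 3. The receptor Clec7a, at 0.22 (SE 0.07), the protease inhibitor Cst7, at 0.26 (SE 0.08), and the receptor Trem2, at 0.13 (SE 0.06), had unadjusted p-values under 0.05, and all had the opposite sign at 24 to 26 months, -0.33, -0.24 and -0.07. Immediate early genes, which report recent neuronal activity, lay above 0 for 10 of 28 over both regions (56.7% of all genes), with a median of -0.10. In the cerebellum 22 of these genes lay above 0 (54.7% of all genes), with a median of 0.06. In the hippocampus 10 did (54.6% of all genes), with a median of -0.18. In wt their mean was 0.16 (cerebellum) and 0.43 (hippocampus) for replicate 3 and -0.28 and -0.33 for replicate 4. In mutants it was 0.19 and 0.02 for replicate 3 and -0.19 and -0.27 for replicate 4, so replicate 3 was higher than replicate 4 in all 4 groups. Over both regions the median was 0.17 without wt replicate 3 and -0.36 without wt replicate 4. Circadian clock genes lay above 0 for 5 of 21, with a median of -0.050, and glucocorticoid-responsive genes for 5 of 18, with a median of -0.038.

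The other lists had medians between -0.026 and 0.060 over both regions, and none had a called member there. Meningeal and fibroblast genes lay above 0 for 10 of 22, with a median of -0.026, although the proteoglycans Lum and Dcn stood at 0.34 (SE 0.08) and 0.38 (SE 0.14). Collagens and small proteoglycans, which share both genes, lay above 0 for 15 of 23, with a median of 0.055. That median was -0.021 without mutant replicate 4 in both regions, and in the hippocampus alone the list's median was -0.014. Endothelial and pericyte genes did so for 13 of 20 (median 0.037), with the tight junction protein Cldn5 at 0.16 (SE 0.06). For astrocyte genes the count was 7 of 16 (median -0.021) and for reactive astrocyte genes 14 of 20 (median 0.041). Interferon response and antigen presentation genes lay above 0 for 20 of 28 (median 0.051), and for 24 of 28 in the cerebellum (median 0.083). The counts were 28 of 38 for cytosolic ribosomal proteins (median 0.043) and 25 of 31 for proteasome subunits (median 0.044). Heat shock and endoplasmic reticulum chaperones had 17 of 24 above 0 (median 0.027), and cholesterol synthesis 11 of 18 (median 0.060). The chaperone median was -0.109 without wt replicate 4 in both regions and 0.125 without wt replicate 3. Purkinje cell genes lay above 0 for 8 of 16 (median -0.006) and sex-linked genes for 5 of 7 (median 0.025).

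**Figure D5:**
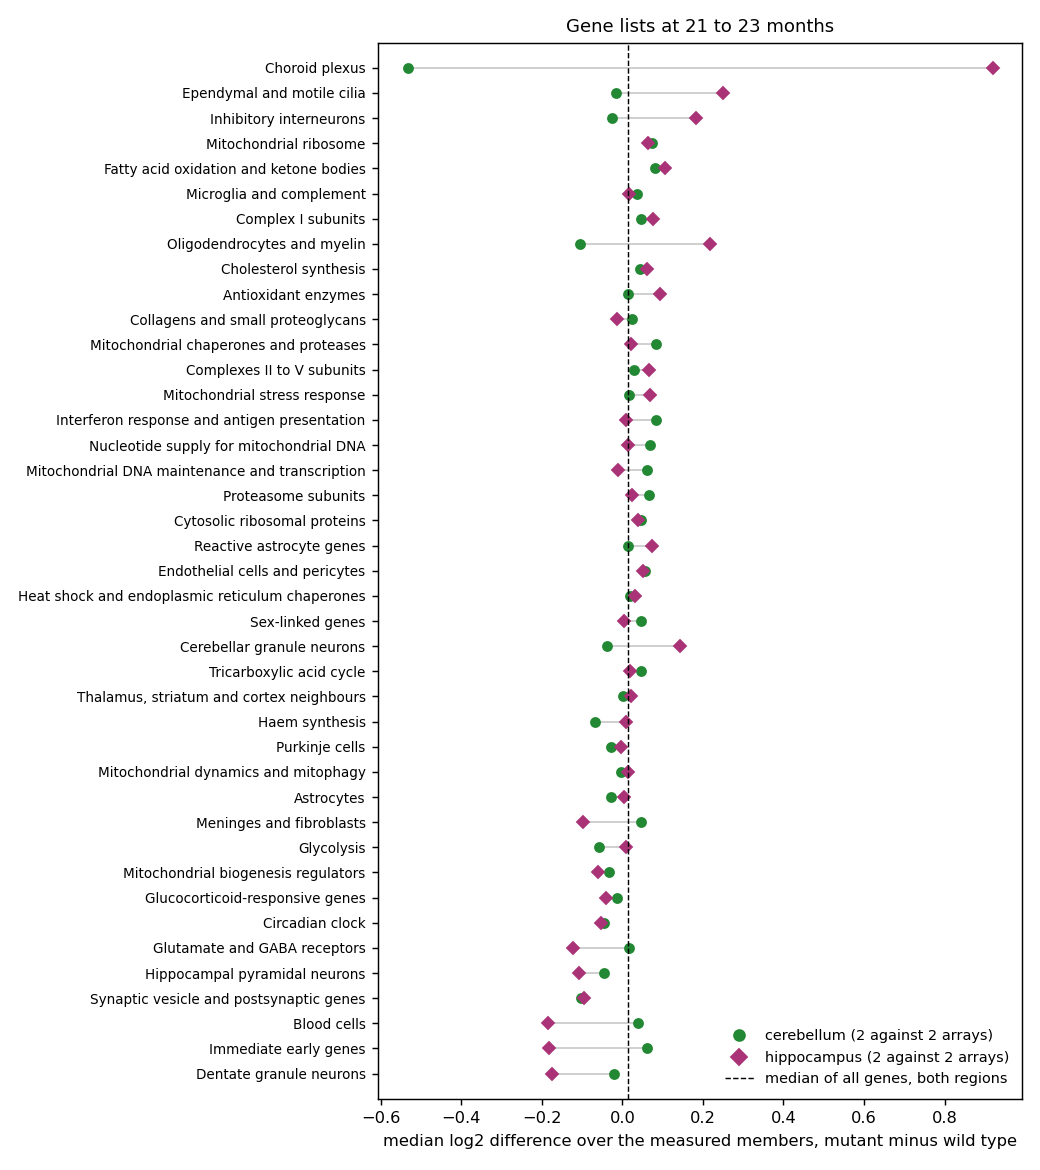
Median log2 difference, mutant minus wt, of the measured members of each of 41 gene lists (horizontal axis) in the cerebellum (circles) and in the hippocampus (diamonds), 2 against 2 arrays each, sorted by the median over both regions, with the dashed line at the median of all genes, 0.013. Choroid plexus has the widest gap, from -0.53 to 0.92, and the mitochondrial lists lie close to the dashed line.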

How the data were processed

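Total RNA of both regions was isolated with Trizol, and 5 ug per sample was labelled with biotin as cRNA and hybridised to Affymetrix arrays (labels' protocols). The submitters' processing notes list GCOS 4.0, and how arrays were normalized and centred is not given in the sources used here. The values deposited by the authors are on a log scale, taken as log2, and for 99.9% of probe sets the median of a region's 8 arrays lies within 1e-05 of 0. If the base were e, differences would be multiplied by 1.44. The free-text description of the hippocampus arrays names cerebellum, whereas title, source and tissue name hippocampus, which was followed.

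Of 45101 probe sets, 64 controls and 133 with an empty value were left out. The 34843 with 1 symbol in GEO's platform annotation were averaged to 18168 genes, 9192 of them on 1 probe set, while 931 had several symbols and 9130 none. No level remains, so no filter on dim signals was applied.

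limma 3.58.1 in R 4.3.3 was fitted, without a trend, to the 8 arrays with genotype and region as terms (5 residual degrees of freedom). A mean per genotype and region (4 residual degrees of freedom) gave each region's effect and their difference, and all 16 arrays (8 residual degrees of freedom) gave the difference between ages. Two-sided p-values were adjusted by Benjamini-Hochberg across all genes, with a threshold of 0.05, and the scripts were tested on simulated data. Median standard errors were 0.072 over both regions, 0.10 per region, 0.15 for the region difference and 0.11 for the age difference, and the number of arrays limits this precision. Named genes are Twnk, the 12 of smallest p per direction over both regions, 5 per direction in each region, 4 per direction for the differences of region and age, and 3 per list. Other genes with values were picked after their values were seen, and the report draws no count from them. The compared groups, 41 gene lists and rules were chosen with earlier results of these data known. Alternatives covered probe set choice, normalization, variance model, arrays sharing the spread, region handling, age and left-out arrays.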

Additional observations from a re-analysis of the deposited data

Results flagged for a closer look

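Single arrays stood apart from the other 3 of their genotype, by the distance to the nearest array over the whole range, in 5 of 132 groups of 4 arrays, where chance gives about 1 in 20. Isl1 read -0.2034 in wt cerebellum replicate 3 and between -0.0452 and -0.0155 on the other wt arrays. The mean of the mitochondrial stress response list was 0.061 in mutant hippocampus replicate 3 and between -0.0111 and -0.0068 on the other mutant arrays. The blood cell list stood at 0.5948 in wt hippocampus replicate 3, against 0.0496 to 0.0892 elsewhere in wt. The Purkinje cell list stood at 0.0874 in wt cerebellum replicate 3, and the list of thalamus, striatum and cortex at -0.0688 in mutant cerebellum replicate 4.

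Signals outside the gene comparisons also differed. The mean of the 15 probe sets of the poly(A) RNA spike-in controls was 0.4931 in mutant cerebellum replicate 4, above both wt cerebellum arrays (-0.0956 and 0.0447). It was 0.0453 in mutant hippocampus replicate 4, against -0.0094 and 0.0121 in wt. The 9 probe sets of the hybridization spike-in controls averaged 0.1091 in mutant hippocampus replicate 4, against -0.0405 and -0.0016 in wt, while the farthest value of all 8 arrays was -0.8006, in wt cerebellum replicate 4. Among 10061 probe sets with several symbols or none, 2 passed over both regions, at -1.0242 and -0.9036, and both are annotated to several haemoglobin genes.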

How the results depend on the processing

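No called value changed sign under any alternative. Over both regions the count of called genes, 1, was 3 with every probe set on its own (the probe set of Alas2 and 2 haemoglobin probe sets) and 0 with probe sets that carry no suffix, which leave out Alas2. It was 0 with both regions averaged first, and between 0 and 1 when arrays were left out. In the cerebellum, 0 became 1 with the spread of all 16 arrays and with the region fitted alone, and 0 to 9 with arrays left out. In the hippocampus, 4 became 0 with every probe set on its own, 1 without suffixed probe sets (Cfap161), 2 with array medians set to 0, 1 with the spread of all 16 arrays and 1 with the region fitted alone, and 0 to 68 with arrays left out. The region difference, 0, gave 0 to 13 with arrays left out, and the age difference 0 throughout. The cause of these shifts was not tested. Deviations of same-numbered arrays from their group means correlated over genes between -0.213 (mutant cerebellum with mutant hippocampus) and 0.13 (wt cerebellum with mutant hippocampus) in the 6 pairs of groups, and not every pair passed 0.1, so the numbers were not taken to pair samples, although immediate early genes were higher in replicate 3 in all 4 groups. With a replicate block, 1 gene was called over both regions, 0 in the cerebellum, 3 in the hippocampus, 0 for the region difference and 0 for the age difference. With 2 arrays a side, the signal over background and the level of any gene unknown, small differences were not detectable.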
